A study of Mus musculus with 4 samples.

Results

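The knockdown of Aurora-A in MC38, a mouse colon carcinoma line, was followed gene by gene by setting the RNA-seq library of cells carrying the hairpin shmaurka-1 against the library of cells carrying a hairpin against GFP. Genes entered when their mean over these 2 libraries was at least 10 counts, whether or not CT26, the other line of the study, expressed them. By this rule 13836 of the 51905 genes in the files were described. The study asked how Aurora-A inside tumor cells shapes their dealings with the immune system, and its 4 libraries were CT26 and MC38 with either hairpin, 1 library for each. Both MC38 cultures were labelled wild type and colon, carried a lentivirus (lenti-shGFP or lenti-shmaurka-1) and were harvested 48 h after seeding. By the study's methods, infected cells were selected with puromycin and passaged before use, so both groups share the virus and the selection.

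A single hairpin was sequenced, so an effect of this hairpin on other transcripts cannot be told apart from the loss of Aurora-A. With 1 library on each side no spread between cultures is known and no test was made. The values compare 2 libraries, and each log2 ratio (shmaurka-1 over shGFP, scaled by TMM with 1 count added) is followed by a 95% interval that covers counting error only. A gene was called higher above 1.5-fold and lower below 0.6-fold. In bulk RNA, fewer cells of a kind and less RNA per cell cannot be told apart.

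Aurora-A is the serine/threonine kinase that loads centrosomes and spindle poles before cell division. TPX2 and Bora activate it, and PLK1 lies downstream of it. Its relative Aurora-B works at the centromere in the chromosomal passenger complex with INCENP, survivin (Birc5) and borealin (Cdca8). In the cytoplasm, foreign or misplaced nucleic acid is read by sensors such as RIG-I (Ddx58) and MDA5 (Ifih1) for RNA and cGAS (Mb21d1) for DNA, which signals through the adaptor STING (Tmem173). They lead to interferon-stimulated genes and to chemokines that draw leukocytes. NF-kB drives an overlapping group of chemokines.

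The shGFP library held 22915543 fragments and the shmaurka-1 library 22803054. A fragment was found for 20365 and 20210 genes. Mitochondrial transcripts took 1.45% and 1.36% of the counts, cytosolic ribosomal protein genes 3.72% and 3.90%, and the top 10 genes 3.86% and 3.76%. MC38 is labelled an epithelial cell, but 9 of 16 epithelial markers were at or under 3 fragments in both libraries, among them Epcam with 0 and 1, and Cdx1, Cdx2 and Cldn3 had none in either. Cdh1, which encodes E-cadherin, had 6 and 4 fragments and Krt8 had 22 and 18, while the epithelial factor gene Elf3 had 274 and 224, Esrp1 46 and 27 and Vil1 38 and 29. The 16 epithelial markers summed to 5.89 FPKM (fragments per kilobase of transcript, scaled to library size) in the shGFP library and 4.67 in the shmaurka-1 library, against 624 and 632 for 16 mesenchymal markers. Vim, which encodes vimentin, at 291 and 241 FPKM and Fn1, fibronectin, at 227 and 284 made up most of the mesenchymal sum. Zeb2 had 3143 and 3282 fragments, while Acta2 had 44 and 39, Tagln 17 and 14 and Thy1 1 and 5. The 12 leukocyte markers summed to 9.60 and 7.64 FPKM, with Cd3e at 0 fragments in both libraries and Ptprc at 0 and 3. Most of that sum came from the macrophage genes Cd68, with 145 and 127 fragments, and Lyz2, with 98 and 69. The 6 endothelial and erythroid markers summed to 3.44 and 2.95 FPKM.

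Aurka (chr2:172356190-172370535, a locus of its own) had 2300 fragments in the shGFP library and 413 in the shmaurka-1 library, or 40.7 and 7.61 FPKM. Its log2 ratio was -2.44 (95% interval -2.60 to -2.29), the lowest among the 11478 genes with a mean of at least 50 counts. The targeted transcript was therefore lower where the labels place the knockdown.

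Of the 13836 genes, 529 (3.82%) were above 1.5-fold and 248 (1.79%) below 0.6-fold, and the median log2 ratio over all of them was 0.00. The counting interval lay above no change for 22% of the genes and below it for 20.1%, and 50.5% had a log2 ratio above 0. Of these genes 7261 share a locus with another gene in the files, and their reads may be split between neighbours. Not every such gene is marked below, and the unmarked ones include Col12a1, S100a4, Cdh5, Mat2a, Tap2, Erap1 and Psmb10. Most calls came from sparsely counted genes. Between 10 and 50 mean counts, 15.5% were above 1.5-fold and 8.18% below 0.6-fold, and the interval excluded no change for 169 of the 366 higher and 113 of the 193 lower genes. From 1000 to 5000 counts the shares were 0.336% and 0.0673%. The median width of the interval to either side fell with depth, from 0.90 on the log2 scale in the lowest group to 0.09 between 1000 and 5000 counts. Among the 11478 genes with at least 50 mean counts, 163 were higher and 55 lower, and each of their intervals excluded no change. The plot of level against ratio shows this narrowing and the few abundant genes that stood outside it.

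**Figure D1:**
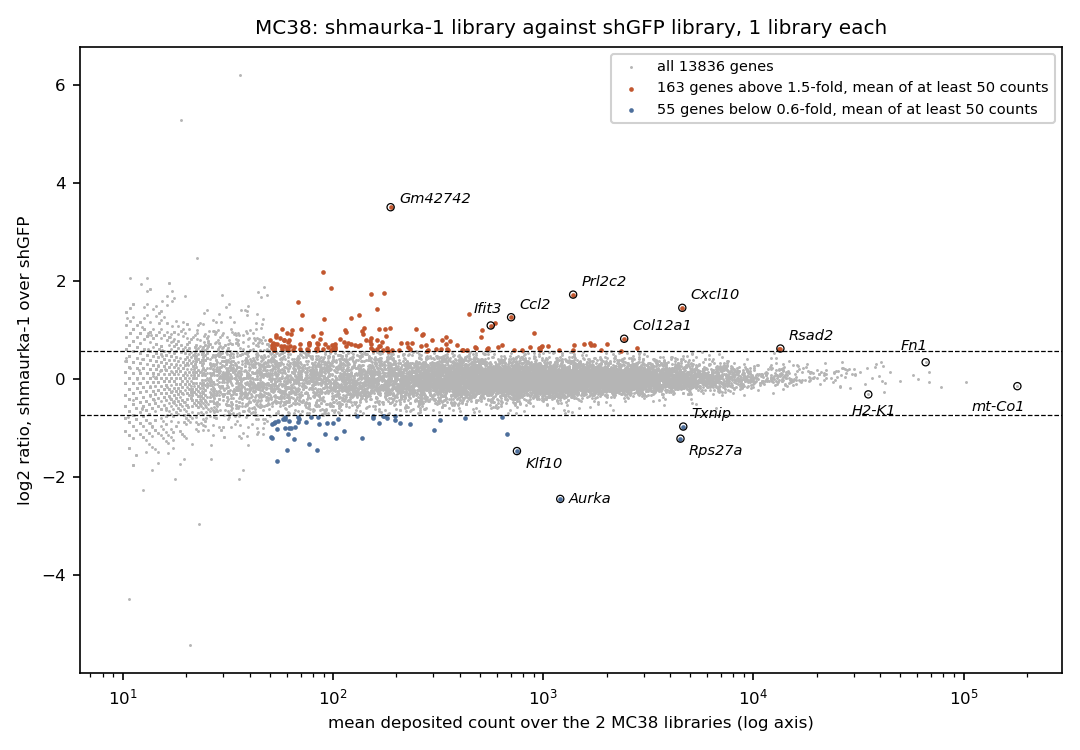
Each point is 1 of 13836 genes, with its mean deposited count over the 2 MC38 libraries on a log axis and its log2 ratio of shmaurka-1 over shGFP; dashed lines mark 1.5-fold and 0.6-fold. Aurka, at -2.44, is the lowest gene with at least 50 mean counts, and Prl2c2 at 1.73 and Cxcl10 at 1.46 are the highest of those with more than 1000.

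Among genes with a locus of their own and at least 50 mean counts, the 12 highest ratios were led by secreted proteins. Prl2c2, a proliferin of the prolactin family (chr13:12996125-13005383), had 730 fragments in the shGFP library and 2361 in the shmaurka-1 library, a log2 ratio of 1.73 (95% interval 1.61 to 1.85). Its close copy Prl2c3 had 47 and 170, a log2 ratio of 1.87, and reads can be split between such copies, so these values are uncertain. Apod, the lipid-binding apolipoprotein D, had 78 and 258 fragments (log2 ratio 1.75, 95% interval 1.39 to 2.15). The chemokine genes Cxcl1, Ccl5 and Cxcl3, the interferon-stimulated genes Ifi27l2a and Ifit3, the ferritin receptor gene Scara5 and the cornified envelope gene Sprr1b came next, with log2 ratios from 0.97 to 1.31. Gm10705 had 286 and 700 fragments (log2 ratio 1.32) and Platr20, a non-coding RNA, 48 and 95 (1.00).

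The lowest ratios after Aurka were led by a transcription factor. Klf10, a Kruppel-like factor that responds early to TGF-beta (chr15:38294413-38300707), had 1245 fragments in the shGFP library and 440 in the shmaurka-1 library, or 17.8 and 6.43 FPKM, a log2 ratio of -1.46 (95% interval -1.63 to -1.31). Fcgbp, a mucus protein that binds IgG Fc, had 100 and 35 fragments (log2 ratio -1.45). Gatm, the enzyme of the first step of creatine synthesis, had 164 and 69 (-1.20), and Slc52a3, a riboflavin transporter, 142 and 63 (-1.12). Cuedc1 had 125 and 48 fragments (-1.33) and Vezf1, a zinc finger factor, 217 and 92 (-1.19). The forkhead factor gene Foxa1 had 93 and 45 (-0.99), and Havcr2, which encodes the immune receptor TIM-3, 95 and 42 (-1.12). Tex101 and the fatty acid transporter gene Slc27a6 (89 and 43 fragments) were lower too, the first at -1.02, and Fos, given with the immediate early genes, was at -0.99. Apart from Aurka and Klf10 these genes lay under 4 FPKM in both libraries. In the deposited FPKM with a pseudocount of 0.1, Cuedc1 was at -0.50 and no longer past 0.6-fold. With a pseudocount of 1, the same held for Fcgbp (-0.32), Vezf1 (-0.70), Slc52a3 (-0.69), Havcr2 (-0.50), Tex101 (-0.72), Slc27a6 (-0.52), Foxa1 (-0.42) and Fos (-0.57).

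The largest differences in scaled counts belonged to abundant genes with small ratios. Fn1, which encodes fibronectin, had 65817 and 81750 fragments (log2 ratio 0.35, 95% interval 0.33 to 0.36), the largest gain in scaled counts. Rnf213, a giant interferon-responsive ubiquitin ligase, had 40202 and 50360 (0.36), and Ncl, the nucleolar protein nucleolin, 38706 and 46949 (0.31). Rack1 (0.27) and Rplp0 (0.15), proteins of the ribosome, followed. The largest losses of scaled counts were those of mt-Co1, a subunit of cytochrome oxidase, at -0.14 (95% interval -0.15 to -0.13), of the ferritin light chain gene Ftl1 at -0.15, of the MHC class I heavy chains H2-K1 at -0.31 and H2-D1 at -0.26, and of the elongation factor Eef1a1 at -0.05. H2-K1 and H2-D1 are near-identical copies, and Ftl1 has several pseudogenes, so reads may be shared.

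The promoters of Cxcl10, Cxcl1, Cxcl3, Ifit3 and Rsad2, higher with shmaurka-1, and of B2m, with a ratio below 0, are shown because the chemokine, interferon and MHC class I results rest on these genes and their kind. Each line is the 250 bases before the RefSeq start of the gene in GRCm38.p6, on the strand of the gene. Capitals mark matches, on either strand, to the core of the interferon-stimulated response element (GAAA, any 2 bases, then GAAA) or to a kappaB site (GGGA, any 2 bases, then TTCC). In Cxcl1 and Cxcl3 a kappaB match on each strand overlaps the other, and the capitals cover both.
Cxcl10 (chr5:92348890-92349139, minus strand): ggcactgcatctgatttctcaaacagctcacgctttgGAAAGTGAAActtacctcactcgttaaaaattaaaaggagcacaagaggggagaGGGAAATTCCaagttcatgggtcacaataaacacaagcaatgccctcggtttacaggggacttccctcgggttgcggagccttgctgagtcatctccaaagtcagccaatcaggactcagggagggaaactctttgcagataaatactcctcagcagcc
Cxcl1 (chr5:90890995-90891244, plus strand): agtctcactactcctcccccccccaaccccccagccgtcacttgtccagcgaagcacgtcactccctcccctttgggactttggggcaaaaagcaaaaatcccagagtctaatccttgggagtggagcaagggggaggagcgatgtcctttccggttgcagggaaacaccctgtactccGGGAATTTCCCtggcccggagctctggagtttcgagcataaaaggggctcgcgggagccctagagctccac
Cxcl3 (chr5:90785851-90786100, plus strand): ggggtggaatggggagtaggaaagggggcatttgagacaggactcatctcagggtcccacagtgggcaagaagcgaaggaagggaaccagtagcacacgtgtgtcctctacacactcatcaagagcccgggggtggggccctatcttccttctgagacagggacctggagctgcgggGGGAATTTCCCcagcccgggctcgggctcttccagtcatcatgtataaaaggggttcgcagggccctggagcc
Ifit3 (chr19:34583279-34583528, plus strand): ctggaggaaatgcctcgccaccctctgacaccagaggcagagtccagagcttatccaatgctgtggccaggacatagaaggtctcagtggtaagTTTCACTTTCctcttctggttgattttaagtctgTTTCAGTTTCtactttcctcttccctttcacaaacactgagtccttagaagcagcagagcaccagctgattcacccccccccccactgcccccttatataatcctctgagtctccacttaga
Rsad2 (chr12:26456453-26456702, minus strand): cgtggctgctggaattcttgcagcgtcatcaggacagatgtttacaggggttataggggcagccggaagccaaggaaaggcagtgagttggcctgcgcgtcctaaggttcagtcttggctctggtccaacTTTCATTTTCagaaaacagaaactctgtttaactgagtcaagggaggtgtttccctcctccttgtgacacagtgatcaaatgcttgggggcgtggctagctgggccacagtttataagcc
B2m (chr2:122147437-122147686, plus strand): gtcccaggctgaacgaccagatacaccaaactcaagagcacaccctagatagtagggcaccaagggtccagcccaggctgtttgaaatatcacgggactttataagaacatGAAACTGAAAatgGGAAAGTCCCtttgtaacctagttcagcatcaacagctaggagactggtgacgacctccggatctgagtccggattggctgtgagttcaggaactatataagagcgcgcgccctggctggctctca

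Chemokine genes that passed the filter had the highest median of all lists, and without the filter the median of the chemokine list was 0.05. Of 28 listed, 11 had a mean of at least 10 counts, and their median log2 ratio was 1.00. Of these 11, 7 (63.6%) were above 1.5-fold and 0 below 0.6-fold, against 3.82% and 1.79% of all genes. Cxcl10, the ligand of CXCR3 on activated T cells, had 2778 fragments in the shGFP library and 7449 in the shmaurka-1 library, or 129 and 351 FPKM. Its log2 ratio was 1.46 (95% interval 1.40 to 1.52), the highest after Prl2c2 among genes with over 1000 mean counts, and Cxcl11, another ligand of CXCR3 in the same locus, had 25 and 83 fragments (1.72). The files place Cxcl10 and Cxcl11 in a locus of 4 genes (chr5:92331827-92414628), so both values are uncertain. Ccl2, which draws monocytes, had 468 and 1100 fragments (1.27, 95% interval 1.11 to 1.43), and the related Ccl7 had 22 and 76 (1.77). Ccl2 lies in a locus of 2 genes, so its value is uncertain too.

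The neutrophil chemokine genes Cxcl1 and Cxcl3, each with its own locus, had 86 and 210 fragments (log2 ratio 1.31, 95% interval 0.95 to 1.70) and 88 and 169 (0.97, 95% interval 0.60 to 1.37). Ccl5, which draws T cells and monocytes, had 86 and 169 (1.00, 95% interval 0.63 to 1.40), and these 3 genes were above 1.5-fold. Not every chemokine did so. Ccl25 had 313 and 317 fragments, Cx3cl1 419 and 434, Cxcl12 33 and 26 and Ccl8 22 and 18, and each of these 4 intervals included no change. In CT26 the log2 ratio of Cxcl10 was 0.35, that of Ccl5 0.00 and that of Ccl2 0.90, the last with 9 and 16 fragments. The MC38 value exceeded that of CT26 by 1.11 for Cxcl10 (95% counting interval 0.98 to 1.23) and by 1.00 for Ccl5 (0.55 to 1.44), with 1 library behind each value. For Ccl2 the difference was 0.37 (-0.82 to 1.56). The 7 chemokines measured in both lines had a median of 1.27 in MC38 and 0.35 in CT26. Of these 7, 6 were above 0 in CT26 and 1 above 1.5-fold.

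Most interferon-stimulated genes had ratios above 0, and most of these were small. Of 79 listed, 75 were measured, 67 had a log2 ratio above 0, and the counting interval lay above no change for 59 and below it for 3. Of the 75, 10 (13.3%) were above 1.5-fold, against 3.82% of all genes, and the median log2 ratio was 0.34. Only Gbp4, with 27 and 13 fragments, was below 0.6-fold. The same 75 genes had a median of 0.33 in CT26, with 71 above 0 and 12 above 1.5-fold. Rsad2, which encodes the antiviral enzyme viperin (chr12:26442746-26456452), had 11971 and 18054 fragments (0.63, 95% interval 0.59 to 0.66). Ifit3, which binds and restrains viral RNA translation together with Ifit1, had 406 and 849 (1.10), and Ifit1 1417 and 2324 (0.75). Ifi27l2a had 416 and 898 (1.14), the 2'-5' oligoadenylate synthetase gene Oas1g 861 and 1323 (0.65), and Slfn8 711 and 1053 (0.60). Scaled by total counts, Slfn8 fell under the threshold. Ifit3, Oas1g and Ifi27l2a have close copies, so their values may share reads.

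The machinery that drives these genes split. The transcription factors of the interferon response, themselves induced by interferon, had ratios above 0 without passing 1.5-fold, with Stat2 at 4833 and 6195 fragments (log2 ratio 0.39), Irf7 at 1305 and 1667 (0.39) and Irf9 at 2065 and 2260 (0.17). The receptors and kinases upstream lay between -0.23 and 0.00. Ifnar2 had 856 and 712 fragments (-0.23, 95% interval -0.38 to -0.09), Jak2 1452 and 1220 (-0.22), and Ifnar1 1639 and 1560 (-0.04, 95% interval -0.14 to 0.06). Over the 24 measured genes of receptors, JAKs, STATs and IRFs the median was -0.09.

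Nucleic acid sensors divided in a like way. The RNA sensor genes Ifih1 and Ddx58 had 1883 and 2536 fragments (log2 ratio 0.46) and 6232 and 8081 (0.41), and Zbp1, a sensor of Z-form nucleic acid, had 762 and 1169 (0.65, 95% interval 0.52 to 0.79). Mavs, the adaptor of RIG-I and MDA5, had 2172 and 2538 (0.26). Tmem173, the gene of STING, had 356 and 214 fragments (-0.70, 95% interval -0.95 to -0.45), and the cGAS gene Mb21d1 had 1534 and 1532. The toll-like receptor gene Tlr4 had 536 and 400 (-0.39) and Tlr3 1040 and 1146 (0.18). Across the 23 measured sensors and adaptors 1 (4.35%) was above 1.5-fold, against 3.82% of all genes, and the median was 0.06.

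Genes of MHC class I presentation, many of which interferon also induces, had ratios on both sides of 0. Of 21 measured, 7 had a log2 ratio above 0, the counting interval lay below no change for 11 and above it for 6, none passed a fold threshold, and the median was -0.15, or -0.26 over genes with an own locus. The heavy chain gene H2-K1 had 44103 fragments in the shGFP library and 34784 in the shmaurka-1 library (-0.31, 95% interval -0.33 to -0.29), and H2-D1 51594 and 42095. B2m, the light chain, had 34542 and 29867 (-0.17, 95% interval -0.20 to -0.15). The peptide transporter genes Tap1 and Tap2 were at -0.16 and -0.46, the trimming peptidase gene Erap1 at -0.37 and the immunoproteasome gene Psmb9 at -0.23. Psmb10, another immunoproteasome gene, had 1155 and 1488 (0.40), Psme2 was at 0.21, and the chaperone genes Calr and Canx of the endoplasmic reticulum were at 0.16 and 0.20. Nlrc5, the transactivator of class I genes, had 1658 and 1463 (-0.15, 95% interval -0.25 to -0.04).

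**Figure D2:**
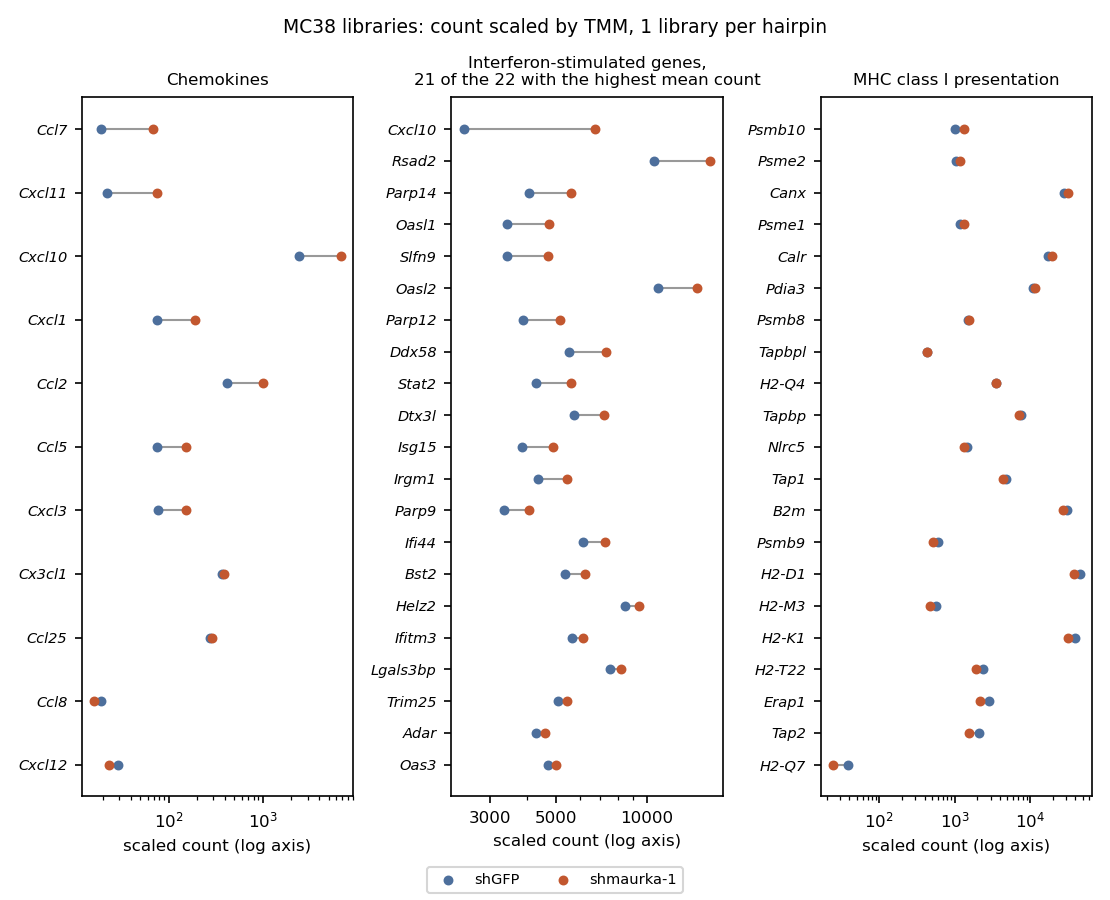
Scaled count (log axis) of each measured chemokine, of 21 of the 22 interferon-stimulated genes with the highest mean count and of each measured MHC class I gene in the MC38 shGFP (blue) and shmaurka-1 (orange) libraries, ordered by ratio. Of the 11 chemokines, 7 separate widely, from Ccl7 at 1.77 to Cxcl3 at 0.97, and 4 lie close together, the shmaurka-1 points of the 21 interferon-stimulated genes drawn lie to the right of shGFP, and those of 14 of the 21 MHC class I genes to its left.

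The interferon element was frequent before the interferon-stimulated genes. Of 75 measured, 53 had a promoter entry, and the element lay in 27 of the 53 (50.9%), against 313 of 9665 MC38 genes with an entry (3.24%) and 936 of all 27025 promoters (3.46%). All 6 of those above 1.5-fold that had an entry held it (Cxcl10, Ifit1, Ifit3, Oas1g, Rsad2 and Slfn8). Among all MC38 genes it lay before 17 of 259 above 1.5-fold (6.56%) and 4 of 144 below 0.6-fold (2.78%). The kappaB match lay before 144 of the 9665 genes (1.49%) and 368 of all 27025 promoters (1.36%). It was found in 3 of the 7 measured chemokine genes with an entry. These were Cxcl10, Cxcl1 and Cxcl3, the 3 with an entry that were above 1.5-fold, as shown in the sequences. The other chemokine genes above 1.5-fold, Cxcl11, Ccl2, Ccl7 and Ccl5, had no entry, so their promoters were not read. Among all MC38 genes it lay before 7 of 259 above 1.5-fold (2.70%) and 4 of 144 below 0.6-fold (2.78%), nearly the same share. In Cxcl10 the interferon element begins 213 bases and the kappaB match 159 bases before the start. B2m holds a match to each motif and had a lower ratio. A match describes these letters only.

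The 24 measured NF-kB subunits, inhibitors and targets had a median of 0.10, with 0 below 0.6-fold. Of them 4 (16.7%) were above 1.5-fold, against 3.82% of all genes. Besides Cxcl1 and Ccl2 these were Traf1, a signalling adaptor, with 336 and 536 fragments (0.71, 95% interval 0.51 to 0.91), and Nfkbiz, an inhibitor-like cofactor, with 256 and 376 (0.59, or 0.56 and under the threshold when scaled by total counts). The inhibitor gene Nfkbia, itself a target of NF-kB, had 598 and 812 (0.48), and the subunit gene Rela 3447 and 4052 (0.27). Nfkb1 had 3807 and 3294 (-0.17), and the target gene Vcam1, an adhesion molecule for leukocytes, had 298 and 194 (-0.58). The inhibitory gene Tnfaip3 had 127 and 121, with an interval that included no change.

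Cytokine genes outside the chemokines were mostly sparse. Of 39 interleukins, colony-stimulating factors and TNF family ligands, 15 were measured, with a median of -0.09. Above 1.5-fold were 0 and below 0.6-fold 1 (6.67%), against 3.82% and 1.79% of all genes. The 1 below, under 50 mean counts, was at -1.08 with an interval below no change. Csf1, the growth factor of macrophages, had 2810 and 3940 fragments (0.52, 95% interval 0.45 to 0.59) and Mif 5427 and 6521 (0.30). Il15, which sustains NK and memory CD8+ T cells, had 141 and 89 (-0.62, 95% interval -1.03 to -0.24), and Tnfsf9, the gene of 4-1BB ligand, 343 and 240 (-0.48). Il6 had 18 and 11, and its interval of -1.90 to 0.49 included no change. Among 13 measured checkpoint molecules Havcr2 alone (7.69%) passed a threshold, where 1.79% of all genes were below 0.6-fold. Cd274, which encodes PD-L1, had 518 and 638 (0.34), the anti-phagocytic Cd47 2481 and 3266 (0.43), and the NKG2D ligand gene Raet1e 341 and 227 (-0.55).

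Immediate early genes, which growth factor signals switch on within minutes, leaned to the low side. Of 36 measured, 12 had a log2 ratio above 0, and the counting interval lay below no change for 14 and above it for 7. The median was -0.18, or -0.11 over genes with at least 50 mean counts. Below 0.6-fold were 3 (8.33%), against 1.79% of all genes. Klf10 led them. Fos had 95 and 46 fragments (-0.99, 95% interval -1.55 to -0.49) and the ETS factor gene Etv5 908 and 518 (-0.77, 95% interval -0.93 to -0.62). Other genes that ERK signalling is known to induce had ratios below 0 and above 0.6-fold, with Egr1 at 207 and 139 (-0.54), the ERK phosphatase gene Dusp6 at 489 and 332 (-0.52), Spry4 at 337 and 238 (-0.46) and Ier2 at 1325 and 986 (-0.39). Against them, Fosl1 had 892 and 1243 (0.51), Zfp36l1 1154 and 1588 (0.50), Myc 4377 and 5956 (0.48) and Jun 3055 and 3699 (0.31).

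The Kruppel-like family had a median of -0.14 over 17 measured members (-0.06 in FPKM with either pseudocount), with an interval below no change for 9 and above it for 2. Klf6 had 4592 and 3339 fragments (-0.42), Klf5 414 and 311 (-0.38) and Klf11, the nearest relative of Klf10, 1257 and 948 (-0.37), while Klf3 had 1761 and 2034 (0.24) and Klf4 2258 and 2464 (0.16). Other targets of TGF-beta did not share the size of the Klf10 difference. Id3 was at -0.34 and Id1 at 0.21, and the median of the 32 measured genes of that pathway was -0.08.

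Receptor tyrosine kinases and their ligands had a median of 0.01 over 40 measured genes. Of them 1 (2.5%) was above 1.5-fold and 1 (2.5%) below 0.6-fold, against 3.82% and 1.79% of all genes. Fgf1, the one above, had 6 and 23 fragments and reached the filter only through the shmaurka-1 library. The platelet-derived growth factor gene Pdgfc was the one below, with 221 and 128 (-0.75). Erbb3 had 951 and 578 (-0.68, 95% interval -0.83 to -0.53), Pdgfra 770 and 499 (-0.59), Igf1r 1230 and 904 (-0.41) and Epha2 1333 and 978 (-0.41). Ereg, an EGF receptor ligand, had 414 and 592 (0.55), Fgf7 903 and 1229 (0.48) and Pdgfrb 1312 and 1625 (0.34). Erbb3, Pdgfra, Pdgfc and Ereg share loci with other genes and are uncertain.

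Mitotic genes leaned slightly to the low side in MC38. Of 51 measured genes of mitosis and the spindle checkpoint none passed a fold threshold, 16 had a log2 ratio above 0, the counting interval lay below no change for 25 and above it for 7, and the median was -0.10. Melk, a mitotic kinase, had 1202 and 893 fragments (-0.39), the kinetochore gene Cenpf 1736 and 1358 (-0.32), Ccnb1, cyclin B1, 2685 and 2117 (-0.31, 95% interval -0.39 to -0.22), and Cdc25c 467 and 377 (-0.27). Bub3 had 1750 and 2057 (0.27), Mad2l1 2594 and 2989 (0.24) and Cdc20 1740 and 1956 (0.20). The same 51 genes had a median of 0.64 in CT26.

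The partners of Aurora-A and the members of the passenger complex moved little beside Aurka itself. Tpx2, its activator, had 7879 and 6944 fragments (-0.15, 95% interval -0.19 to -0.10), Bora 543 and 503 (-0.07, 95% interval -0.25 to 0.10) and Plk1 1840 and 1826 (0.02). Aurkb had 2034 and 1803 (-0.14), Incenp 6152 and 5387 (-0.16), Cdca8 2307 and 2016 (-0.16) and Birc5 1631 and 1542 (-0.05). Nedd9, a scaffold that activates Aurora-A, stood highest with 819 and 1036 (0.37, 95% interval 0.24 to 0.51). The list of 12 measured genes, Aurka included, had a median of -0.11 in MC38 and 0.59 in CT26, with Aurkb at 0.87 and Birc5 at 0.78 in CT26. The plot of partners and tubulins sets both lines beside each other.

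**Figure D3:**
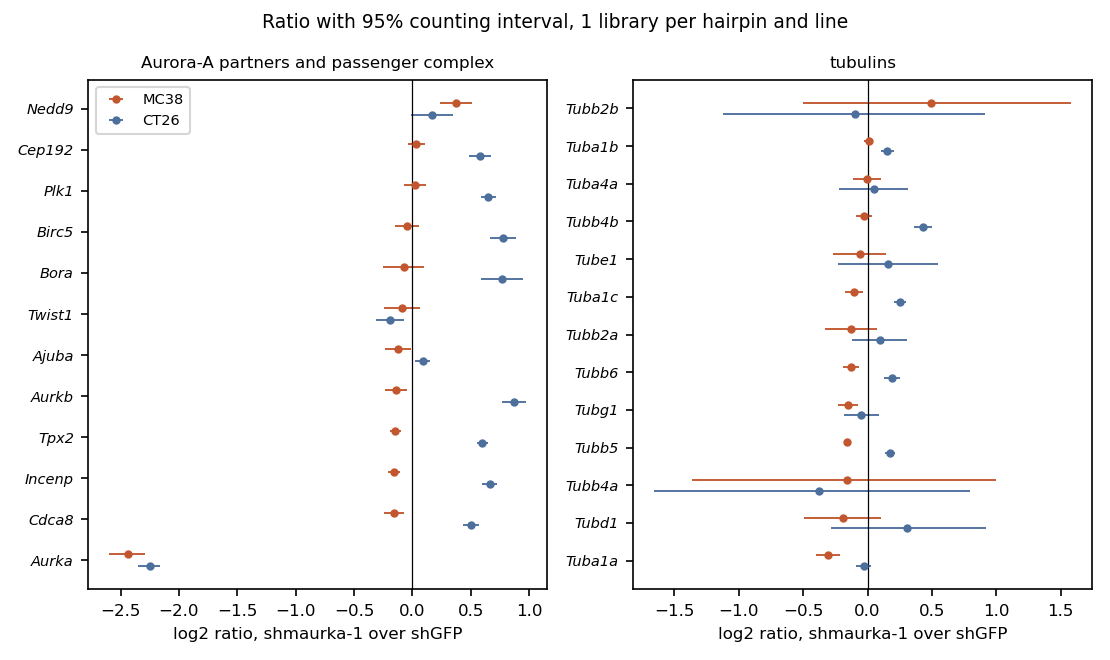
Log2 ratio of shmaurka-1 over shGFP with its 95% counting interval for Aurora-A partners and passenger complex genes (left) and for tubulins measured in both lines (right), in MC38 (orange) and CT26 (blue), 1 library per hairpin and line. Aurka lies near the same value in both lines (-2.44 and -2.25), while Aurkb is at -0.14 in MC38 and 0.87 in CT26.

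Tubulin genes had a median of -0.13 over 14 measured members, with an interval below no change for 6 and above it for 0. Tubb5, the main beta-tubulin of dividing cells, had 30790 and 26943 fragments (-0.16, 95% interval -0.18 to -0.13), Tuba1a 2280 and 1799 (-0.31), and Tubb3 1025 and 708 (-0.50) in a shared locus. Tuba1b was at 0.01 with 13636 and 13387. Centrosome and centriole genes had a median of -0.07 over 39 measured, with Ccp110 at 1533 and 1156 (-0.37) and Cep63 at 352 and 480 (0.48).

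S phase genes leaned the other way. Of 51 measured, 36 had a log2 ratio above 0, the counting interval lay above no change for 22 and below it for 6, and the median was 0.08. The licensing factor gene Cdc6 had 1339 and 1806 fragments (0.47, 95% interval 0.36 to 0.57), Ccne1, cyclin E1, 460 and 610 (0.44), E2f1 2116 and 2779 (0.43), the clamp loader gene Rfc5 2292 and 3001 (0.42) and Rrm2, which supplies deoxynucleotides, 5699 and 7420 (0.42). Pole2 had 419 and 322 (-0.34). Of 34 measured p53 targets none passed a threshold and the median was -0.04, with the death receptor gene Eda2r at 258 and 153 (-0.71), Cdkn1a, the gene of p21, at 1017 and 796 (-0.32), and Plk2 at 1117 and 1466 (0.43). The 12 measured BCL2 family genes had a median of 0.02, with Bok at -0.51 and Bax at 0.28.

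Genes of ribosome production had ratios above 0 for the most part, and of 46 measured genes of ribosome biogenesis and MYC targets 0 passed either fold threshold. Of these, 39 had a log2 ratio above 0, the interval lay above no change for 35 and below it for 4, and the median was 0.15. After Myc came the snoRNP protein gene Nop56 with 9017 and 11803 fragments (0.42), Rrp1b with 1812 and 2363 (0.42), the spermidine synthase gene Srm with 2588 and 3349 (0.41) and Nolc1 with 7392 and 9314 (0.37). The MYC antagonists Mxd3 and Mxi1 were at -0.29 and -0.22. Of 79 cytosolic ribosomal protein genes 64 had a log2 ratio above 0, with a median of 0.09.

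Rps27a, a ubiquitin-ribosomal protein fusion, was the 1 cytosolic ribosomal protein gene past a fold threshold, while the interval lay below no change for 8 of the 79 and above it for 50. It had 7105 fragments in the shGFP library and 2997 in the shmaurka-1 library, or 445 and 214 FPKM, a log2 ratio of -1.21 (95% interval -1.27 to -1.15), against 2201 and 3308 fragments (0.72) in CT26. It lies in a locus of 3 genes (chr11:29545846-29578367) and has processed copies, so its value is uncertain. Other large ratios at good depth also fell in shared loci. Txnip, an inhibitor of thioredoxin, had 6938 and 3472 (-0.96), Nipa2, a magnesium transporter, 1046 and 471 (-1.11), Gm42742 34 and 384 (3.51), the mitochondrial thioredoxin reductase gene Txnrd2 36 and 163 (2.18) and the kinase gene Rps6kb2 90 and 300 (1.76). In the locus of Gm42742, Pagr1a had 1029 and 627 fragments, so neighbours in 1 locus had ratios of opposite sign.

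Metabolic and stress lists had medians close to 0. Glycolysis had a median of 0.09 over 23 measured genes and 0 past either threshold, with Hk2 at 2514 and 3303 fragments (0.43), Eno1 at 26440 and 32842 (0.35) and Pkm at 39214 and 45821 (0.26), while Gapdh had 5628 and 4862 (-0.18). Nqo1, a quinone reductase under NRF2, had 2656 and 3826 (0.56, 95% interval 0.49 to 0.63), although the 41 measured NRF2 and antioxidant genes had a median of 0.00. Mat2a, which makes S-adenosylmethionine, had 208 and 381 (0.90, 95% interval 0.66 to 1.16). The lipid droplet gene Plin2 had 1714 and 1240 (-0.43). Of 15 mitochondrially encoded genes the ribosomal RNAs mt-Rnr1 and mt-Rnr2 were at 0.34 and 0.33 and mt-Co2 at -0.45. In the nuclear respiratory chain (75 measured, median 0.04), Uqcrc1 had 357 and 226 (-0.62), against 172 and 241 (0.62) in CT26. The integrated stress response (47 measured) and the unfolded protein response (26) had medians of 0.10 and 0.07, with 0 past either threshold. The interval lay above no change for 28 of the 47 and below it for 7, and above it for 13 of the 26 and below it for 5. Stc2 was at 0.40, Atf3 at 0.31 and Manf at 0.24. Cholesterol synthesis (29), lysosome and autophagy (52), proteasome (38) and heat shock genes (35) had medians of 0.08, -0.02, 0.02 and -0.02.

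**Figure D4:**
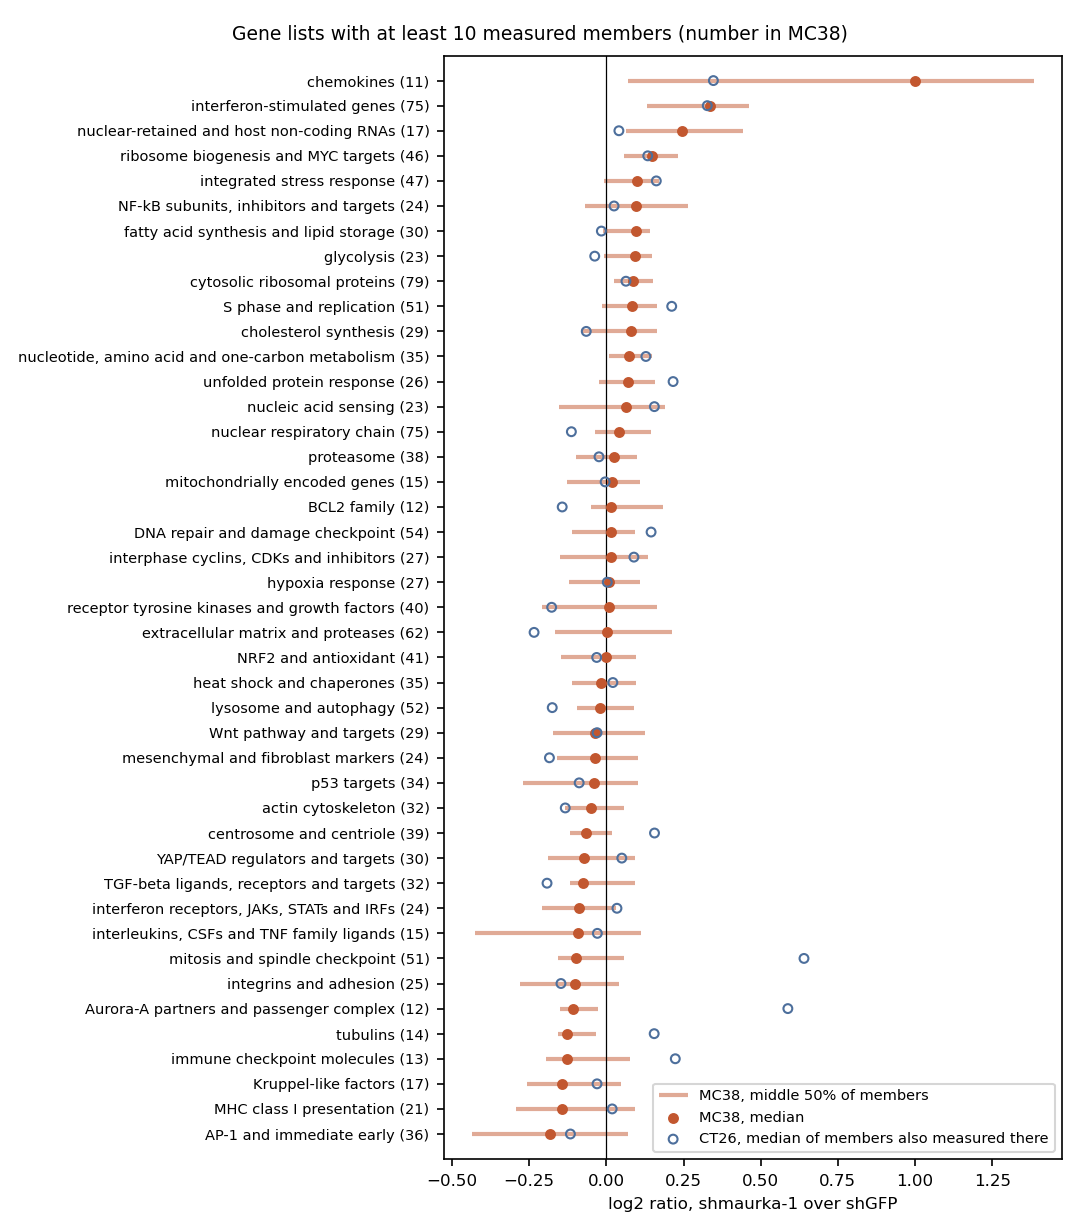
Median log2 ratio of shmaurka-1 over shGFP for each gene list with at least 10 measured members in MC38 (orange, with the middle 50% of members), and for the members also measured in CT26 (blue circles), 1 library per hairpin and line. Chemokines (1.00) and interferon-stimulated genes (0.34) lie highest in MC38 and immediate early genes (-0.18) lowest, while mitosis genes are at -0.10 in MC38 and 0.64 in CT26.

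Matrix and adhesion genes went both ways. The 62 measured matrix and protease genes had a median of 0.00. Of them 2 (3.23%) were above 1.5-fold and 2 (3.23%) below 0.6-fold, against 3.82% and 1.79% of all genes. Col12a1, a collagen that decorates fibrils, had 1984 and 3436 fragments (0.83, 95% interval 0.75 to 0.91) and Col6a2 2117 and 3103 (0.59, or 0.56 and under the threshold when scaled by total counts). The other chains of collagen VI had ratios above 0 and under 1.5-fold, Col6a3 with 976 and 1400 (0.56) and Col6a1 with 2374 and 2997 (0.37), as was Thbs2, thrombospondin 2, with 926 and 1305 (0.53). The laminin gene Lamb2 had 2414 and 1667 (-0.50), Adamts4, an aggrecan protease, 374 and 244 (-0.58), Timp3 149 and 90 (-0.69) and Fbln2, fibulin 2, 84 and 48 (-0.76). The fibrillar collagen genes Col1a1 and Col3a1 were at -0.07 and -0.02 with intervals that included no change. N-cadherin (Cdh2) had 486 and 314 (-0.59) and the motility protein gene S100a4 294 and 474 (0.72). The 4 measured endothelial and erythroid genes split. Cdh5, VE-cadherin, had 173 and 81 (-1.05, 95% interval -1.46 to -0.67) and Pecam1 42 and 18 (-1.14), while Emcn, endomucin, had 21 and 40 (0.93, 95% interval 0.17 to 1.80) and Vwf 12 and 17 (0.50, 95% interval -0.61 to 1.74). The 6 endothelial and erythroid markers went from 3.44 to 2.95 FPKM in sum, as given above, and the part of other cells in these values was not tested.

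Long non-coding RNAs had a higher median ratio than protein-coding genes. By RefSeq symbol, 12922 of the 13836 genes could be assigned a class. Of 425 long non-coding RNAs, 83 (19.5%) were above 1.5-fold and 11 (2.59%) below 0.6-fold, with a median of 0.20, against 269 (2.32%) and 180 (1.56%) of 11573 protein-coding genes, whose median was -0.01. With a mean of at least 50 counts, 16 of 184 were above 1.5-fold and 0 below 0.6-fold, again with a median of 0.20. In CT26, where 3.97% of all measured genes were above 1.5-fold and 3.12% below 0.6-fold, 31 of 302 were higher and 19 lower, with a median of 0.00. Pseudogenes in MC38 leaned the same way, with 75 of 820 (9.15%) above 1.5-fold, 19 (2.32%) below 0.6-fold and a median of 0.08. In CT26 62 of 873 pseudogenes were higher and 41 lower, with a median of 0.05. AW011738 had 278 and 491 fragments (0.85) and Eldr 71 and 123 (0.82) in loci of their own. Among named nuclear and snoRNA host RNAs, Neat1, the scaffold of paraspeckles, had 5207 and 7492 (0.56, 95% interval 0.51 to 0.61), Snhg5 863 and 1342 (0.67), Snhg12 1337 and 1809 (0.47) and Malat1 8210 and 6976 (-0.20), all in shared loci. The linker histone gene Hist1h1c had 142 and 257 (0.89).

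Genes with under 10 mean counts in CT26 numbered 1908. Of these, 80 lie in a block of 210 genes on chromosome 8 (chr8:119910360-124345724) that the files list at 0 in both CT26 libraries. The block holds genes every cell uses, such as Rpl13 with 29415 and 32880 fragments in MC38 and Cox4i1 with 8238 and 8449, so its genes are given as listed at 0 in CT26 and not as absent there. Outside it 1828 genes remained, of which 216 (11.8%) were above 1.5-fold and 129 (7.06%) below 0.6-fold, with a median of -0.04, and neither CT26 library held over 3 fragments for 1018 of them. Of the 1828, the 763 that averaged 50 counts or more in MC38 had 31 (4.06%) above and 15 (1.97%) below, where 163 and 55 of all 11478 genes at that depth were called.

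The most abundant of these, named after their values were seen, stayed near no change apart from Prl2c2, and the other 11 of the 12 with the highest FPKM had log2 ratios from -0.35 to 0.29. AI662270 had 179 FPKM in the shGFP library and 200.4 in the shmaurka-1 library (log2 ratio 0.19), and Prl2c2 had 51.4 and 169. Fmr1nb, a germline gene, had 78.9 and 74.1 FPKM (-0.07), Fam159b 68.4 and 83.4 (0.29), the purine transporter gene Slc43a3 75.5 and 64.6 (-0.28), the antioxidant enzyme gene Mgst1 69.2 and 54.5 (-0.35) and the forkhead factor gene Foxf2 43.8 and 49.6 (0.21). Ldhb, a lactate dehydrogenase subunit, had 1275 and 1326 fragments (0.09), with 4 and 2 fragments in the CT26 libraries. After Prl2c3, Apod and Prl2c2 the highest ratios among the 763 were those of Epha3, an ephrin receptor, with 61 and 141 fragments (1.23), Dach1 with 52 and 105 (1.03) and Nckap5 with 185 and 369 (1.03), all in shared loci. Among the lowest of the 763 were Fcgbp, Gatm, Slc52a3, Tex101 and Slc27a6, given above.

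**Figure D5:**
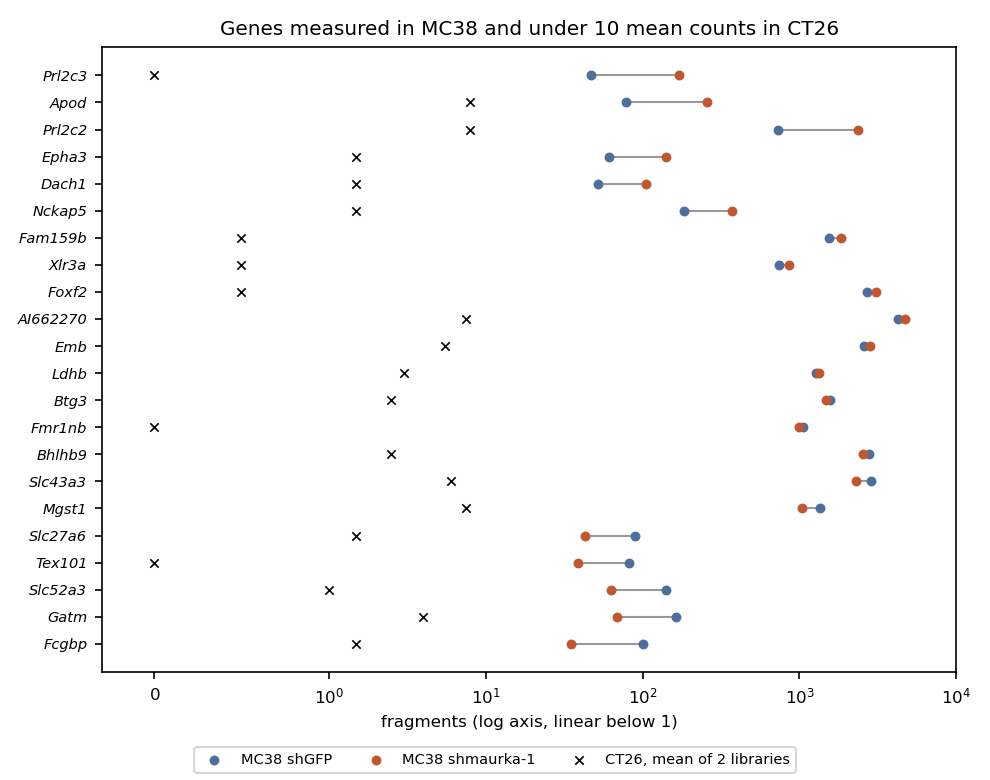
Fragments in the MC38 shGFP (blue) and shmaurka-1 (orange) libraries and their mean over both CT26 libraries (crosses) for named genes with under 10 mean counts in CT26, outside the chromosome 8 block; the axis is logarithmic and linear below 1. Prl2c2 separates most among the abundant ones, with 730 and 2361 fragments.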

How the data were processed

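RNA of 4 cultures was measured by RNA-seq, and the 2 MC38 libraries were compared here, with CT26 beside them. The authors deposited, in tables of the whole series, estimated counts scaled between libraries and FPKM per gene. The submitters' processing notes name Trimmomatic 0.36, HISAT2, Cufflinks 2.2.1 and Cuffdiff. Those notes name GRCm39, but 99.7% of 20051 genes overlapped their GRCm38.p6 positions and 8.99% of 26888 their GRCm39 positions, so coordinates are given as GRCm38. They are those of the locus in the files. Whether reads were counted by strand is not given in the sources used here.

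The deposited counts were divided by the value of 1 fragment in each MC38 library (0.885 and 0.901), which gave whole numbers within 0.05 for 97.1% and 97.2% of values. Deposited counts were scaled by TMM (edgeR 4.0.16, R 4.3.3) and 1 count was added. Intervals are exact 95% conditional binomial intervals on the fragments (scipy 1.17.1). They cover counting error only, and reads are not independent molecules. No label says whether the cultures were separate. The steps were tested on simulated data. Python 3.11.15, numpy 2.4.6, pandas 2.3.3 and matplotlib 3.10.9 were used.

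Genes needed a mean of at least 10 counts, and those past 1.5-fold or 0.6-fold were called. Named genes were Aurka, the 12 highest and 12 lowest ratios among genes with an own locus and a mean of at least 50 counts, the 5 largest gains and losses of scaled counts, leading members of 47 gene lists, and 6 genes at each end and by level among those under 10 mean counts in CT26. Further list members and shared-locus genes were named after their values were seen. The members and lists were chosen with earlier results of these data known. A few items are not reported here. Markers at or under a floor of 3 fragments were counted as such. Gene classes and promoters came from RefSeq by symbol, with 12922 genes matched. Alternatives were other scalings (total counts, TMM over 4 libraries, DESeq2 1.42.0 size factors), counts added, filters, FPKM with a pseudocount of 1 or 0.1, an interval requirement, a lower threshold of 1/1.5 and genes with an own locus.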

Additional observations from a re-analysis of the deposited data

Results flagged for a closer look

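Values of opposite sign in the 2 lines, with 1 library behind each condition, drew 4 results to a closer look (list medians at least 0.1 from 0 in both lines, or named genes past 1.5-fold in size in both), and none of these differences was tested. Mitosis genes came close to that limit, with -0.10 in MC38 and 0.64 in CT26, and centrosome genes had -0.07 and 0.16. The list of Aurora-A, its partners and the passenger complex (12 measured genes, Aurka included) had a median log2 ratio of -0.11 in MC38 and 0.59 in CT26. The 13 tubulin genes measured in both lines had a median of -0.13 in MC38 and 0.16 in CT26. Uqcrc1, a core subunit of respiratory complex III, had a log2 ratio of -0.62 in MC38 and 0.62 in CT26. Rps27a had -1.21 in MC38 and 0.72 in CT26, in a locus shared by 3 genes.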

How the results depend on the processing

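No paired analysis was possible because the comparison within MC38 has 1 library on each side. A fit of both lines with the line as a block was not made. Counts of called genes followed the filter, the unit and the threshold. Against 529 higher and 248 lower genes, a mean of at least 50 counts left 163 and 55, no filter gave 3089 and 2821, FPKM with a pseudocount of 1 gave 181 and 34, and genes with an own locus numbered 250 and 121. An interval that excludes no change left 332 higher genes. FPKM with a pseudocount of 0.1 left 147 lower genes, and a lower threshold of 1/1.5 gave 428. For genes under 10 mean counts in CT26 (223 higher, 129 lower, the chromosome 8 block included), the same settings gave 33 and 15, 2606 and 2504, 54 and 7, and 91 and 68. The interval requirement left 118 and 74 of them, and lower genes numbered 85 with 5 counts added, 77 with FPKM and a pseudocount of 0.1, and 194 with the lower threshold of 1/1.5. The share of calls that were higher was 68.1%, against 84.2% with FPKM and a pseudocount of 1, 52.3% with no filter and 55.3% with the lower threshold of 1/1.5.

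Aurka was at -2.27 with FPKM and a pseudocount of 1. With the interval requirement the list medians were -0.14 for mitosis, 0.16 for S phase, -0.26 for p53 targets, 0.25 for the BCL2 family, 0.13 for fatty acid synthesis, 0.15 for the nuclear respiratory chain, 0.12 for cytosolic ribosomal proteins, -1.15 for epithelial markers, 0.10 for mesenchymal markers, -0.11 for DNA repair, -0.15 for centrosome genes and 0.12 for nucleotide and amino acid metabolism. With own loci alone the mitochondrially encoded genes were at 0.33 (5 genes), and the 1 nuclear or host non-coding RNA with an own locus was at 0.85. Of 1822 alternative values 1715 kept within their bounds. The bounds were a gene's counting interval, wide for sparse genes, a range from the ranks of a list's members, or 1.5-fold either way for counts of genes. TMM over 4 libraries gave the same ratios within MC38, so its values could not leave them. No named gene past a fold threshold changed sign, and 2 named genes near 0 did. In FPKM with a pseudocount of 1 the calls of Zbp1, Traf1, Nfkbiz, Col6a2, Etv5, Fbln2, Pdgfc, Cdh5, Epha3 and Dach1 were also lost. The calls of Nfkbiz, Col6a2 and Slfn8 were lost with total counts and with DESeq2 size factors. The medians of 18 of 45 lists took the other sign under a setting, among them nucleic acid sensing, cytokines, checkpoints, matrix and receptor tyrosine kinases. Leaving out the chromosome 8 block, a setting added after seeing the data, moved no value out of its bounds. Depth limits genes under 50 mean counts, where the interval reached a median of 0.90 to either side on the log2 scale. The causes of these shifts were not tested.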
